A study of Mus musculus with 16 samples.

Results

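Cell cycle genes are 36 genes that copy DNA or drive and carry out mitosis, found on the array through probes whose RefSeq accession belongs to each listed gene. All 36 were present, among 21368 named genes on the array, and 48 probes represented them, so that 8 genes had more than 1 probe and the brightest stood for the gene. The samples were 16 Agilent 1-colour arrays of total RNA from primary cultures of C57BL/6 mouse cortex, 4 in each of 4 groups. The groups were cortical astrocytes with 1 nM recombinant secreted Klotho for 24 h, cortical astrocytes with PBS vehicle for 24 h, cortical neurons with 1 nM recombinant secreted Klotho for 24 h, and cortical neurons with PBS vehicle for 24 h. Klotho is an ageing-related membrane protein that helps a hormone of the fibroblast growth factor family signal in the kidney, and a secreted form circulates. The astrocytes came from pups of postnatal days 0 to 5, were grown in serum and were shaken for 15 h to remove other cells, although their sample labels also carry embryonic day 16. The neurons came from embryos of day 16, were kept in Neurobasal medium with B27 supplement and were treated at day in vitro 14. The labels name no genetic change in any group. They do not say whether replicates came from separate cultures or animals, so any p-value here reflects the spread among these cultures' arrays, which may be technical.

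The cell division cycle is driven by cyclins that switch on cyclin-dependent kinases in sequence. D cyclins with Cdk4 release E2F factors in G1, E cyclins with Cdk2 start DNA replication, and A and B cyclins with Cdk1 bring the cell into mitosis, where checkpoint kinases, motors and centromere proteins share out the chromosomes. Mature neurons have left the cycle for good, so in neuron cultures these transcripts are usually read as a sign of progenitors and glia that still divide, whereas astrocytes grown in serum divide until they are crowded. Many of the mitotic genes are held silent in resting cells and in early G1 by the DREAM complex. It binds a short promoter element called CHR, often next to CCAAT boxes bound by NF-Y, whereas replication genes often carry E2F sites.

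These elements were read in promoter windows of 300 bases, from 250 before to 50 after the annotated start, in RefSeq assembly GRCm38.p6. Windows were read for 28 of the 36 genes; those of Ccnd1, Ccnd2, Ccne2, Ccna2, Foxm1, Aurkb, Kif20a and Mcm4 were not analysed here. Matches were searched on both strands to TTTGAA or TTCGAA for CHR, to CCAAT, and to TTCCCGC or TTGGCGC for E2F. CCAAT read on the opposite strand shares letters with TTGGCGC, so 1 stretch can count for both, as it does in Ccnb1. A CHR match was found in 14 of the 28 genes (50%), against 21.7% of 27025 genes with a window. By role, CHR matches were found in 4 of 5 mitotic entry genes, 7 of 8 chromosome segregation genes, 3 of 11 replication genes and 0 of 4 G1/S genes. The E2F words were found in 10 of 28 genes (35.7%), against 7.79% of all genes, and in 6 of the 11 replication genes. CCAAT was found in 22 of 28 genes (78.6%), against 41.1% of all genes. A match is a description of the letters and not a measured binding site.

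4 windows show the arrangement, with matched letters in capitals and all written on the gene's own strand, 5′ to 3′. Cdk1, the kinase of mitotic entry (chr10:69352863-69353162, minus strand), holds 2 CHR matches that begin 71 and 15 bases before the start, CCAAT on the opposite strand at 3 places, and an E2F word that begins 178 bases before the start. Ccnb2, its B cyclin partner (chr9:70421505-70421804, minus strand), holds 3 CCAAT boxes that begin 87, 54 and 21 bases before the start and 2 CHR matches, which begin 167 bases before the start and at base 5 after it. Aurka, a kinase of the spindle poles (chr2:172370521-172370820, minus strand), holds 2 CCAAT boxes and a CHR match that begins at base 33 after the start. Mcm6, a subunit of the replicative helicase (chr1:128359656-128359955, minus strand), is shown for contrast, with 2 E2F words that begin 109 and 46 bases before the start and no CHR match. Like the others it holds CCAAT, here on the opposite strand at 2 places that begin 57 and 14 bases before the start.
Cdk1: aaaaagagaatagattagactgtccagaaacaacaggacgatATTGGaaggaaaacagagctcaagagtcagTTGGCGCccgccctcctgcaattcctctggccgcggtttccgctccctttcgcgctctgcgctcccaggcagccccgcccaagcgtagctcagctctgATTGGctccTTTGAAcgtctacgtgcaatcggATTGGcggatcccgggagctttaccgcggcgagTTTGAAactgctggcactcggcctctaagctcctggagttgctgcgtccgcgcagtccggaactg
Ccnb2: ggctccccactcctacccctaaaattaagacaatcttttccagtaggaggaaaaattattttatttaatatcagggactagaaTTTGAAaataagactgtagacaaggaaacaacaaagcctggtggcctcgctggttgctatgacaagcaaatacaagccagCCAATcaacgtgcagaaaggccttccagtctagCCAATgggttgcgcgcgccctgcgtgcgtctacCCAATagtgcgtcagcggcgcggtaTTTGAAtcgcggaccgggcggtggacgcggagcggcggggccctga
Aurka: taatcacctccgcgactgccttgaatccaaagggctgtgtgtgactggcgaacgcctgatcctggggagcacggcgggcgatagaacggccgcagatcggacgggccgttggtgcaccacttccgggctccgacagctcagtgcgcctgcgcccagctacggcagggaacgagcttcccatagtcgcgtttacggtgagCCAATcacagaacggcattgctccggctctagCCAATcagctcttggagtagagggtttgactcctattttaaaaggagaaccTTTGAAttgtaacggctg
Mcm6: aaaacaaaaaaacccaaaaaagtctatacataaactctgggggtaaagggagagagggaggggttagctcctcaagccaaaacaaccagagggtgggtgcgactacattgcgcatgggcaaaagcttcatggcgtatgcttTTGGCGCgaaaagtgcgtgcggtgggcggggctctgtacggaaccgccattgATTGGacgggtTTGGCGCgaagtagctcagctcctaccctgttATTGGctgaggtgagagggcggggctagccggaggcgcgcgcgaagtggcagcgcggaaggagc

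Levels below are log2 processed signals relative to the 75th percentile of the same array, so that 0 is that percentile, and they compare arrays for a gene, not genes with each other. 34 of the 36 genes were well above background on all 16 arrays. Ccne2, the second E cyclin, was above background on 0 arrays, and Aurkb, the kinase of the chromosomal passenger complex, on 1 astrocyte control array, so neither was tested and their absence from the counts below says nothing of their direction. Spots well above background made up 57.5% to 67.3% of an astrocyte Klotho array, 61.9% to 66.8% of an astrocyte control array, 57.9% to 62.0% of a neuron Klotho array and 65.0% to 67.3% of a neuron control array. All neuron arrays shared slide 1, with Klotho in row 2 and controls in row 1, so a Klotho effect and a row effect cannot be told apart there. Astrocyte Klotho arrays lay on slide 3 and astrocyte controls on slide 2, each with replicates 3 and 4 in row 2 and replicates 1 and 2 in row 1, so treatment cannot be told apart from slide. For 6 astrocyte samples the deposited value table holds the values of another astrocyte array, for 4 of them an array of the other treatment, and astrocyte results are therefore also given with the value table's assignment.

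**Figure D1:**
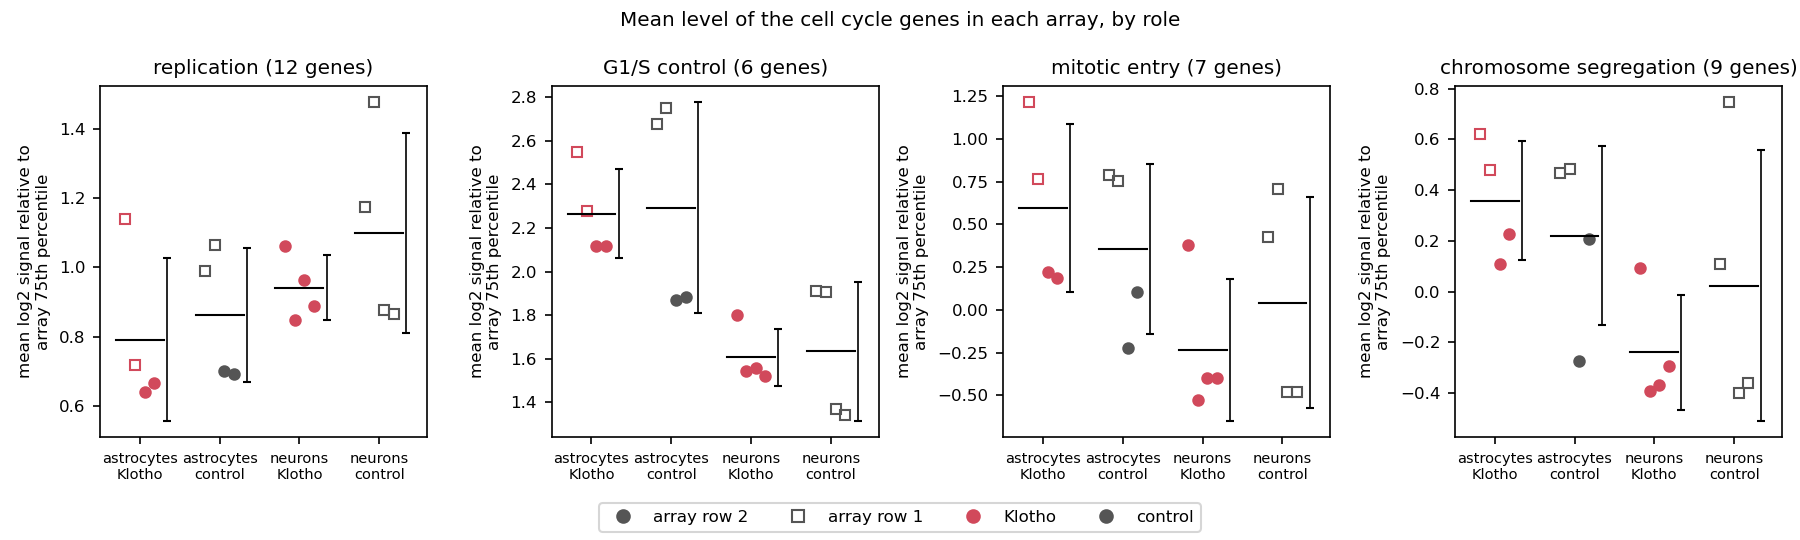
Mean log2 signal, relative to the array's 75th percentile, of the tested cell cycle genes of each role (y axis) in each array, by group (x axis); points are arrays, horizontal bars are group means and vertical bars are SD (n = 4). In the mitotic entry panel the astrocyte arrays of row 2 lie between -0.22 and 0.22 and those of row 1 between 0.75 and 1.22, and in the neurons 1 Klotho array and 2 control arrays lie above 0.37 while the others lie below -0.39.

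In neurons, no cell cycle gene passed the test for a Klotho effect. limma called 0 of 34 genes, and 0 had an unadjusted p below 0.05, against 36 called of 28847 genes and probes tested (0.125%, all lower) and 4.12% at that unadjusted level. The log2 change was negative for 31 of 34 genes, against 56.2% of all tested, with a median of -0.19 against -0.03. By role, the median change was -0.15 for 12 replication genes, -0.02 for 6 G1/S genes, -0.31 for 7 mitotic entry genes and -0.23 for 9 segregation genes, with all 16 of the last 2 roles negative. The 10 genes with the smallest p-values are given next with every array, in replicate order.

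Among replication genes, Mcm4, a helicase subunit, had 2.35, 2.20, 2.26 and 2.14 in neuron Klotho arrays, against 2.52, 2.76, 2.29 and 2.32 in neuron control arrays (log2 change -0.24 ± 0.13 SE, limma adjusted p = 0.998). Mcm3, a further subunit, had 1.55, 1.27, 1.31 and 1.34 in Klotho arrays, against 1.77, 2.27, 1.35 and 1.47 in controls (-0.35 ± 0.20). Mcm6 had 3.61, 3.38, 3.74 and 3.65 in Klotho arrays, against 3.58, 4.16, 3.74 and 3.74 in controls (-0.21 ± 0.15). In these 3 genes the groups overlapped, and the highest value belonged to control 2. Cdc6, which loads the helicase onto origins, had -2.69, -3.28, -3.00 and -3.36 in Klotho arrays, against -2.47, -2.11, -3.00 and -3.13 in controls (-0.40 ± 0.25). Rrm1, the large subunit of ribonucleotide reductase, had 2.07, 1.83, 1.92 and 1.93 in Klotho arrays, against 2.15, 2.41, 1.93 and 1.93 in controls (-0.17 ± 0.13). Control 2 was again the highest array, and controls 3 and 4 lay within the Klotho range for Rrm1.

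Among mitotic genes, Mki67, the chromosome-coating protein used as a marker of proliferation, had 2.17, 1.37, 1.31 and 1.51 in neuron Klotho arrays, against 1.94, 3.0, 1.62 and 1.74 in controls, and its change of -0.49 ± 0.32 had a 95% interval of -1.22 to 0.25. Birc5 (survivin), a subunit of the chromosomal passenger complex, had 2.09, 1.39, 1.44 and 1.46 in Klotho arrays, against 2.37, 2.81, 1.49 and 1.56 in controls (-0.46 ± 0.31). Ccnb2 had 0.45, -0.31, -0.21 and -0.22 in Klotho arrays, against 0.44, 0.66, -0.01 and 0.00 in controls (-0.34 ± 0.22). In these 3 genes Klotho 1 lay nearer to control 1 than to the other Klotho arrays. Kif20a, a kinesin of cytokinesis, had 0.16, -0.48, -0.28 and -0.33 in Klotho arrays, against -0.02, 0.83, -0.19 and -0.02 in controls (-0.38 ± 0.24). Bub1, a spindle checkpoint kinase, had -1.61, -2.67, -2.45 and -2.50 in Klotho arrays, against -1.62, -1.09, -2.47 and -2.40 in controls (-0.41 ± 0.35). The adjusted p was 0.998 for each of these 5 genes, and their groups overlapped.

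The spread within the neuron groups followed a few arrays, control 2 and also control 1 and Klotho 1. Control 2 held the highest of the 8 neuron values in 28 of 34 genes, against 14.3% of all tested genes and probes. The exceptions were Cdc45, Ccnd1, E2f1 and Foxm1, highest in control 1, Ccne1, highest in Klotho 1, and Mcm7, highest in Klotho 2. The mean over the 7 mitotic entry genes was 0.38, -0.53, -0.40 and -0.40 in Klotho arrays 1 to 4, against 0.42, 0.71, -0.48 and -0.48 in control arrays 1 to 4. For segregation genes it was 0.09, -0.39, -0.37 and -0.29, against 0.11, 0.75, -0.40 and -0.36. For G1/S genes it was 1.80, 1.54, 1.56 and 1.52, against 1.91, 1.91, 1.37 and 1.34. For replication genes it was 1.06, 0.85, 0.96 and 0.89, against 1.17, 1.48, 0.88 and 0.87. Without control 2 the median change over the 34 genes was -0.01, with 19 negative and 15 positive, whereas without both replicate 1 arrays, a choice made after seeing the data, it was -0.21 with 30 negative. Marker genes of other cells varied over the same arrays. The mean of 12 astrocyte markers was 1.04, 1.51, 1.53 and 1.59 in Klotho arrays, against 1.29, 1.82, 1.76 and 1.60 in controls, so control 2 was highest and Klotho 1 lowest, and 10 of 11 tested were negative, with a median of -0.20. The mean of 12 neural progenitor markers was 0.45, 0.98, 1.02 and 1.03 in Klotho arrays, against 0.54, 1.35, 1.05 and 1.01 in controls, with control 2 again highest and both replicate 1 arrays lowest. The mean of 10 meningeal fibroblast markers was -2.80, -2.28, -2.07 and -2.47 in Klotho arrays, against -2.69, -1.92, -2.20 and -2.14 in controls, and all 10 were negative, with a median of -0.12. The mean of 12 oligodendrocyte lineage markers was likewise highest in control 2, at 1.76, with 8 of 12 negative. The mean of 12 microglial markers was -3.75, -2.31, -1.87 and -1.90 in Klotho arrays, against -3.32, -2.60, -2.10 and -2.20 in controls, where the replicate 1 arrays were again lowest, and 8 of 10 tested were positive. 0 markers of these lists were called. Their part in the result was not tested.

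The remaining cell cycle genes in neurons lay closer to 0 or were more scattered. The changes of the D and E cyclin group ran from -0.12 for E2f1, the transcription factor that starts S phase, to 0.09 for Cdk2. Cdk1 changed by -0.33 ± 0.39 by its brightest probe, Foxm1, a transcription factor of G2 and mitosis, by -0.32 ± 0.39 and Ccnb1 by -0.31 ± 0.40, none past the test. The 3 Cdk1 probes ran from -0.33 to 1.55, but the dimmer ones lay near background in neurons. The probe at 1.55 was above background on 0 control arrays and 1 Klotho array, and the remaining dim probe on 0 arrays of either group. Ccnb1 had 0.91 in Klotho 1 and between -0.20 and -0.01 in the other Klotho arrays, against 0.97 and 1.33 in controls 1 and 2 and -0.19 and -0.21 in controls 3 and 4. The 95% intervals of the 34 genes thus allow changes of either sign for every gene, the narrowest being that of Tyms, thymidylate synthase, at -0.28 to 0.23. Related lists had 0 calls as well. The change was negative for 25 of 31 other replication genes, 37 of 40 other mitosis genes, 12 of 18 genes of the RB, E2F and DREAM group, 5 of 7 CDK inhibitor genes and 12 of 16 p53 target genes.

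**Figure D2:**
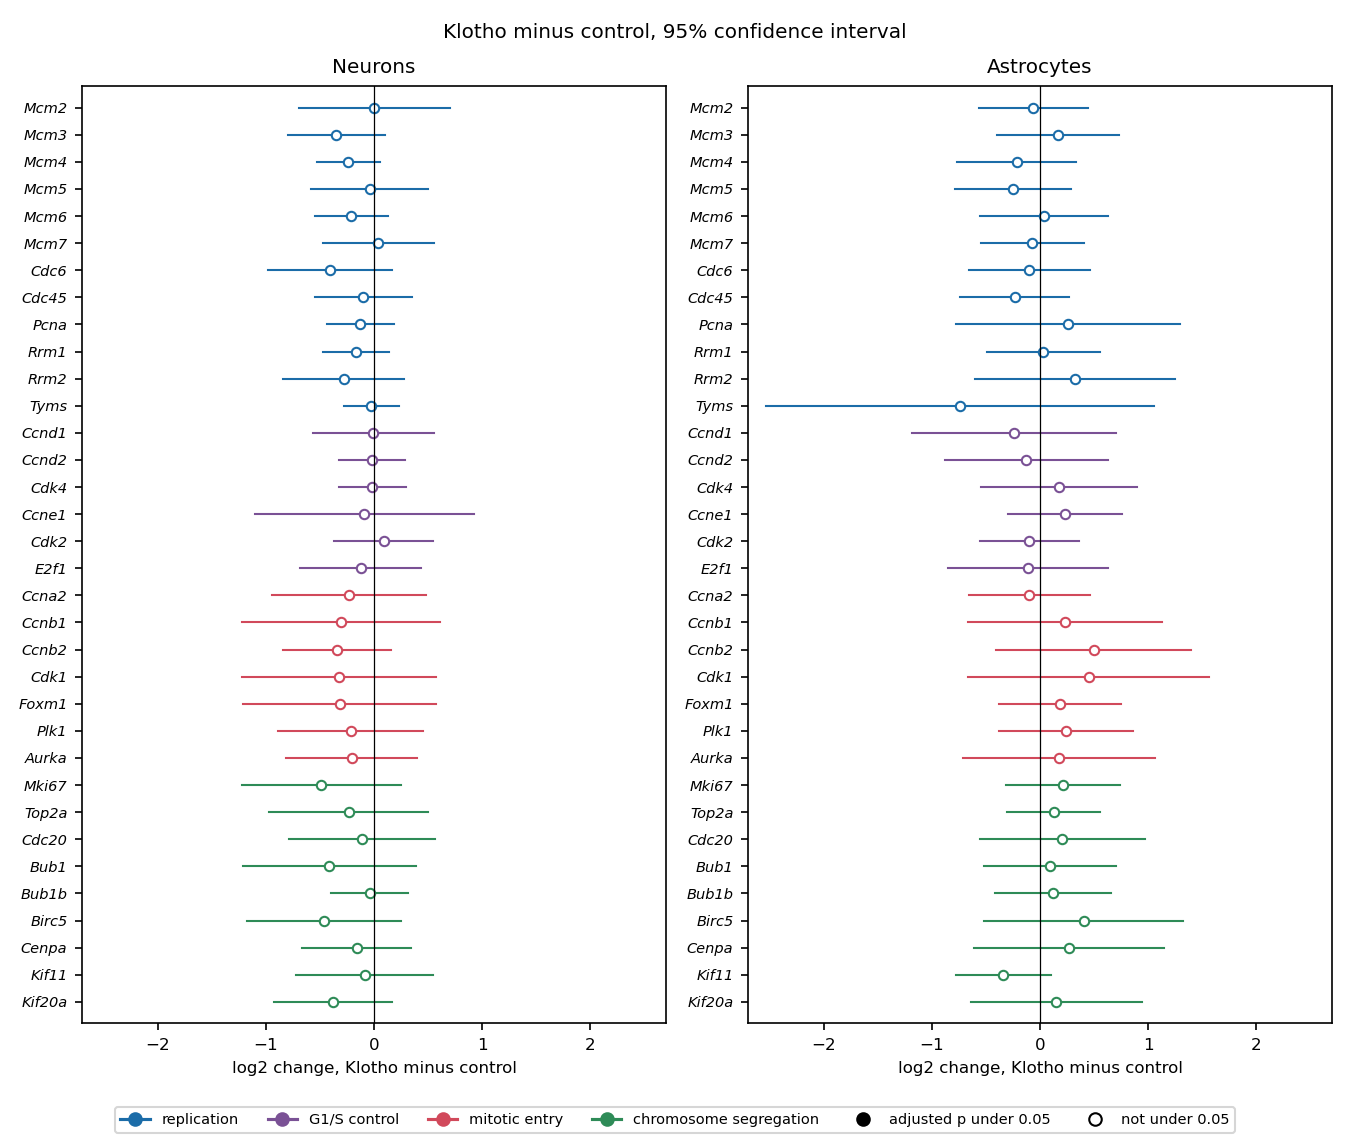
Log2 change, Klotho minus control (x axis), of the 34 tested cell cycle genes (y axis, coloured by role), in neurons (left) and in astrocytes by scanner file (right); points are limma estimates and lines 95% confidence intervals (n = 4 arrays a group). Every interval crosses 0 in both cell types, with a median of -0.19 in neurons and 0.12 in astrocytes.

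In astrocytes, no cell cycle gene passed the test for a Klotho effect either. limma called 0 of 34 genes and 0 had an unadjusted p below 0.05, against 0 called of 27145 tested (0%) and 3.56% at the unadjusted level. The change was positive for 21 of 34 genes, against 48.5% of all tested, with a median of 0.12 against -0.01, and with the value table's assignment the median was 0.00, with 17 positive and 17 negative. Over the arrays whose treatment is the same in both sources the median was 0.08 with 21 positive. Within row 2 it was 0.18 with 27 positive, and within row 1 it was -0.02 with 16 positive. Without Klotho 1 it was -0.02 and without control 3 it was -0.04, so the sign of the median rested on single arrays. Replication genes had a median of -0.07 and G1/S genes of -0.11, against 0.23 for mitotic entry genes, of which 6 of 7 were positive, and 0.15 for segregation genes, of which 8 of 9 were positive.

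The smallest p-value belonged to Kif11, the kinesin that pushes spindle poles apart, with -1.98, -2.10, -1.72 and -2.16 in astrocyte Klotho arrays, against -1.53, -1.66, -1.77 and -1.64 in astrocyte controls (log2 change -0.34 ± 0.19 SE, limma adjusted p = 1.00). Ccnb2 had 2.20, 1.77, 0.70 and 1.03 in Klotho arrays, against 1.40, 1.32, 0.25 and 0.75 in controls, a change of 0.49 ± 0.40 in which arrays 1 and 2 of both groups were high and arrays 3 and 4 low. Mcm5 had 0.57, 0.13, 0.25 and 0.40 in Klotho arrays, against 0.78, 0.90, 0.12 and 0.56 in controls (-0.25 ± 0.24). Cdc45, a partner of the helicase at the replication fork, had -4.12, -4.70, -4.68 and -4.72 in Klotho arrays, against -4.31, -4.17, -4.23 and -4.57 in controls (-0.23 ± 0.22). In each of these genes the groups overlapped. Tyms changed by -0.74 ± 0.79, with -3.38 to -2.94 in the Klotho arrays, against 0.32 in control 3 and -3.67 to -2.88 in the other controls. A single array, control 3, carried that difference. Related lists had 0 calls, with positive changes for 12 of 30 other replication genes, 25 of 41 other mitosis genes and 6 of 7 CDK inhibitor genes.

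The difference between the cell types in the Klotho effect, tested as an interaction, was past the threshold for 0 of 34 genes, against 23 of 30696 tested (0.0749%), and 0 genes had an unadjusted p below 0.05, against 4.87%. It was positive for 25 of 34 genes, against 52.3% of all tested, with a median of 0.31 against 0.02, and 0.15 with the value table's assignment. Birc5 had the largest value at 0.87 ± 0.54, with an interval of -0.28 to 2.01, followed by Ccnb2 at 0.84 ± 0.48 and Cdk1 at 0.78 ± 0.67 (adjusted p = 0.999 each). Without neuron control 2 the median was 0.11, and without astrocyte Klotho 1 it was 0.12.

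The astrocyte arrays differed by array row, with the B cyclins, Cdk1, Aurka and the replication clamp among the genes lower in row 2. limma, with treatment in the fit, called 15 of 34 genes lower and 0 higher, against 22.9% lower and 25.2% higher of 27966 tested (48.1% in either direction). The difference was negative for 32 of 34 genes, against 48.0% of all tested, with a median of -0.43 against 0.04. In 17 of 34 genes all 4 row 2 values lay below all 4 row 1 values, against 21.5% of all tested. Called genes were 5 of 7 for mitotic entry, 5 of 9 for segregation, 3 of 6 for G1/S and 2 of 12 for replication. Rows hold replicates 3 and 4 against replicates 1 and 2 in both treatments, so row cannot be told apart from whatever the replicate numbers stand for. Row 2 arrays also had a median probe closer to the 75th percentile, at -4.00 and -3.91 on slide 3 and -3.66 and -3.75 on slide 2, against -4.20 and -4.06 and -4.35 and -4.47 in row 1. When arrays were centred on the median instead, the median of all tested moved to -0.40 and that of the cell cycle genes to -0.87. Relative to the median of all tested, the median of the cell cycle genes was -0.48, and it was -0.38 with quantile normalization, -0.36 with normexp background correction and -0.28 within slide 3. With the value table's assignment of treatment 16 genes were called lower.

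For mitotic entry, Cdk1 had -0.22, -0.55, -0.89 and -0.77 in row 2, in Klotho 3, Klotho 4, control 3 and control 4, against 1.34, 0.45, 0.44 and 0.46 in row 1, in Klotho 1, Klotho 2, control 1 and control 2 (log2 difference -1.28 ± 0.21 SE, limma adjusted p = 0.00425). Its 3 probes ran from -1.28 to -0.04. In the same array order, Ccnb1 had 0.24, 0.23, -0.32 and -0.18 in row 2, against 1.17, 0.79, 1.09 and 0.92 in row 1 (-1.0 ± 0.18, adjusted p = 0.00464). Ccnb2 had 0.70, 1.03, 0.25 and 0.75 in row 2, against 2.20, 1.77, 1.40 and 1.32 in row 1 (-0.99 ± 0.19, adjusted p = 0.00567). Neither cyclin nor their kinase overlapped between rows, and Klotho 1 was the highest array for all 3. Aurka had 0.30, -0.04, -0.20 and -0.05 in row 2, against 1.31, 0.75, 0.95 and 0.93 in row 1 (-0.98 ± 0.18, adjusted p = 0.00493). Plk1, a further mitotic kinase, was also called lower (-0.57 ± 0.16), but the call was lost without control 1, control 2, control 3 or Klotho 1 (adjusted p = 0.0518 to 0.0767) and with quantile normalization (0.07). Ccna2, the cyclin of S phase and G2, and Foxm1 lay lower in row 2 without overlap but missed the threshold, at -0.45 ± 0.16 and -0.39 ± 0.18 (adjusted p = 0.0515 and 0.104). The windows of Cdk1, Ccnb2 and Aurka printed above hold CHR and CCAAT letters, and that of Ccnb1 holds CCAAT and no CHR match. Over the 28 genes with a window the median row difference was -0.39 for 14 genes with a CHR match, 7 of them called, and -0.42 for 14 without, 5 of them called. It was -0.30 for 10 genes with an E2F word, 2 of them called, and -0.57 for 18 without, 10 of them called.

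Of the segregation genes, Birc5 had 1.28, 2.05, 0.87 and 1.58 in row 2, against 2.47, 2.68, 2.18 and 2.24 in row 1 (-0.95 ± 0.23, adjusted p = 0.0121). Cenpa, the histone of centromeres, had -0.65, -0.50, -1.17 and -0.64 in row 2, against 0.56, 0.08, 0.09 and 0.13 in row 1 (-0.96 ± 0.18, adjusted p = 0.00577). Kif20a had 0.94, 1.02, 0.24 and 0.89 in row 2, against 1.66, 1.32, 1.57 and 1.63 in row 1 (-0.77 ± 0.21, adjusted p = 0.0174), a call lost without control 1 or control 2 (0.0618 and 0.0608). These genes did not overlap between rows. Cdc20, which activates the anaphase-promoting complex, fell by a like amount (-0.77 ± 0.18), and Bub1 was called at -0.51 ± 0.18, a call that held without Klotho 2 and was lost when any other single array was left out (adjusted p = 0.0513 to 0.137). Mki67, singled out after its values were seen, was not called, with 2.29, 2.54, 2.07 and 2.41 in row 2, against 1.87, 2.40, 1.86 and 1.93 in row 1 (0.31 ± 0.18, adjusted p = 0.175), and its second probe differed by 0.27. With median centring the Mki67 difference was -0.13 (limma adjusted p = 0.667), so its sign depended on the scaling. Top2a, the topoisomerase that untangles sister chromosomes, and Kif11 differed by -0.10 ± 0.15 and 0.00 ± 0.16, and Bub1b, the second checkpoint kinase gene, by -0.27 ± 0.19.

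Of the replication genes, Pcna, the sliding clamp of DNA polymerase, had 3.33, 3.32, 2.79 and 2.80 in row 2, against 4.51, 3.99, 4.35 and 4.16 in row 1 (-1.19 ± 0.19, adjusted p = 0.00398). Rrm2, the small subunit of ribonucleotide reductase, had 1.94, 1.79, 1.31 and 1.65 in row 2, against 3.20, 2.43, 2.52 and 2.58 in row 1 (-1.01 ± 0.20, adjusted p = 0.00626). Both were called lower without overlap, whereas the 6 helicase subunit genes Mcm2 to Mcm7 ran from -0.42 to -0.12 and none was called. Rrm1 had -0.33 ± 0.17, Cdc6 -0.27 ± 0.21 and Cdc45 -0.22 ± 0.18, none past the test, and the second Cdc6 probe had the opposite sign at 0.33. Tyms was the only tested replication gene with a positive difference, at 1.14 ± 0.72, again through control 3.

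Of the G1/S genes, Ccnd1, a D cyclin induced by growth factors, had 4.17, 4.55, 3.85 and 4.00 in row 2, against 4.25, 4.78, 5.44 and 5.42 in row 1 (-0.83 ± 0.30, adjusted p = 0.0494). Its rows overlapped, since the difference was -0.15 on slide 3, which holds the Klotho arrays by scanner file, and -1.50 on slide 2, which holds the controls. Its call was lost without any 1 control, without Klotho 2 or without Klotho 3 (adjusted p = 0.0704 to 0.143). Ccnd2 (-0.70 ± 0.21) and Cdk4 (-0.76 ± 0.15) were called lower without overlap, and the Ccnd2 call was lost without any 1 control or without Klotho 1 (0.0561 to 0.0968). The rows of Ccnd2 nearly met, at 4.11 in both Klotho 4 of row 2 and Klotho 2 of row 1. Its difference was -0.27 on slide 3 and -1.13 on slide 2. With quantile normalization the calls of Ccnd1, Ccnd2 and Cdk4 were lost (0.325, 0.338 and 0.169). E2f1 had -0.58 ± 0.24, Ccne1 -0.33 ± 0.18 and Cdk2 -0.20 ± 0.15, none past the test. Over all 34 genes the row difference was negative for 31 genes within slide 3 and 32 within slide 2, and for 30 in both. The median within slide 3 was -0.30 against -0.01 over all tested, and within slide 2 it was -0.54 against 0.12. Within slide 3, 0 of 34 genes and 0 of all tested passed the threshold. There 8 genes had an unadjusted p below 0.05, a count whose share over all tested was not computed. Within slide 2, 15 of 34 genes were called lower and 0 higher, against 8325 lower and 10247 higher of 30221 tested.

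**Figure D3:**
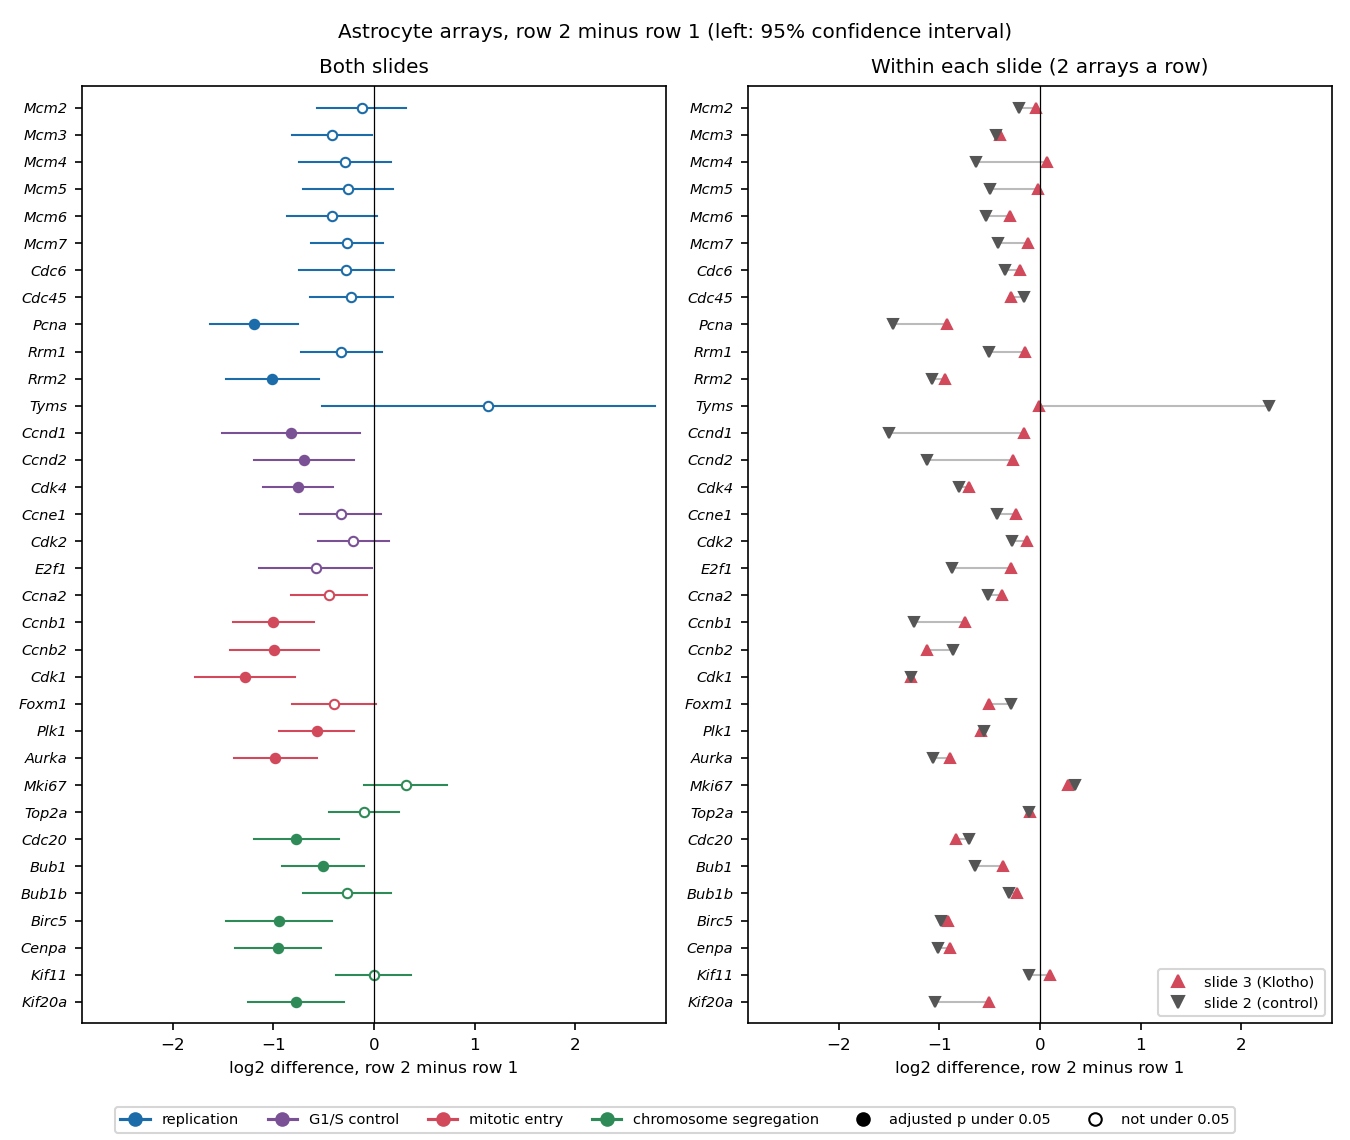
Log2 difference, row 2 minus row 1 (x axis), of the 34 tested cell cycle genes (y axis), over all 8 astrocyte arrays with treatment in the fit (left; limma estimate and 95% confidence interval, coloured by role) and within each slide (right; difference of 2-array means, no error). Filled points are the 15 genes called lower, and Mki67 and Tyms are the genes to the right of 0 in the left panel.

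Genes around the cycle were also compared between rows, beside 22.9% called lower over all tested. Of 7 CDK inhibitor genes 6 were called lower and 0 higher, with a median of -0.97, and the 4 with the smallest p-values were Cdkn2a, Cdkn2d, Cdkn2b and Cdkn2c, inhibitors of Cdk4 and its relatives, at -1.26 ± 0.21, -1.21 ± 0.23, -1.58 ± 0.35 and -0.97 ± 0.23. Of 30 other replication genes tested, 16 were lower and 2 higher, among them Gins2 (-1.41 ± 0.20) and Gins3 (-1.22 ± 0.21), subunits that join the helicase at the fork, and Gmnn (-1.34 ± 0.26), which blocks relicensing. Of 41 other mitosis genes, 21 were lower and 0 higher, with the smallest p-values in Spc25 (-1.64 ± 0.18) of the kinetochore, Cdca3 (-1.11 ± 0.17), Melk (-0.99 ± 0.16) and the checkpoint gene Mad2l1 (-1.12 ± 0.18). Of 16 p53 target genes 7 were lower and 0 higher, with the smallest p-values in Pmaip1 (-1.55 ± 0.26) and Phlda3 (-0.96 ± 0.20). Of 18 genes of the RB, E2F and DREAM group 5 were lower, Lin52 (-1.34 ± 0.28) with the smallest p-value, and 0 higher, a share near that of all tested. Of 5 other G1 genes only Ccnd3, the third D cyclin, was called (-0.78 ± 0.20). Marker lists in the same comparison gave 3 astrocyte markers of 12 lower and 0 higher, 3 meningeal fibroblast markers of 8 tested lower and 1 higher, with 7 of 8 negative, and 3 neuron markers of 11 tested lower and 2 higher. Of 12 oligodendrocyte lineage markers 1 was lower and 2 higher, of 4 endothelial markers tested 1 was lower and 2 higher, of 12 microglial markers 0 were lower and 1 higher, and of 10 progenitor markers 0 were called. Their part in the row difference was not tested.

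Astrocytes and neurons were compared within each treatment, and the 2 comparisons share no array. In bulk cultures fewer dividing cells and less RNA per cell cannot be told apart, and the cell types lay on different slides. Row was also unequal, since neuron Klotho arrays lay in row 2 and neuron controls in row 1, while astrocyte arrays lay in both. Under Klotho, limma called 14 of 34 genes higher and 4 lower in astrocytes, against 27.4% higher and 35.5% lower of 27803 tested (62.9% in all), with a median of 0.41 against -0.18. In controls it called 3 higher and 3 lower, against 21.5% higher and 29.9% lower of 30545 tested (51.4% in all), with a median of 0.07 against -0.21. With only the astrocyte arrays of the neurons' row, the median was 0.18 against -0.10 under Klotho and 0.32 against -0.28 in controls. The order of the treatments was thus reversed, and the part of row was not tested. All 6 genes called in controls were called in the same direction under Klotho. The 6 were Ccnd1, Cdk2 and Cdk1, higher in astrocytes, and Mcm5, Cdc6 and Cdc45, lower in astrocytes. In both comparisons 28 of 34 genes had the same sign. Such agreement was not computed over all tested genes, so these counts do not set the cell cycle genes apart. Ccnd1, Cdk2 and Cdc45 passed the test in both comparisons under every alternative run.

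Ccnd1 had 4.25, 4.78, 4.17 and 4.55 in astrocyte Klotho arrays, against 2.93, 2.34, 2.46 and 2.36 in neuron Klotho arrays (log2 difference 1.91 ± 0.21 SE, limma adjusted p = 3.76e-05). In controls it had 5.44, 5.42, 3.85 and 4.00 in astrocytes, against 3.17, 2.63, 2.21 and 2.12 in neurons (2.15 ± 0.44, adjusted p = 0.00323). Every astrocyte array lay above every neuron array. Cdk2, the kinase partner of E and A cyclins, had -1.15, -1.30, -1.37 and -1.34 in astrocyte Klotho arrays, against -2.72, -2.11, -2.23 and -2.10 in neuron Klotho arrays (1.00 ± 0.19, adjusted p = 0.00135). In controls it had -1.15, -0.95, -1.51 and -1.14 in astrocytes, against -2.65, -1.92, -2.40 and -2.55 in neurons (1.19 ± 0.23, adjusted p = 0.0022). These groups did not overlap either. Ccnd2 and Cdk4 were not called in either comparison, and Cdk4 had the opposite sign, at -0.48 ± 0.23 under Klotho and -0.67 ± 0.27 in controls. E2f1 was called higher under Klotho (0.72 ± 0.25), a call lost without neuron Klotho 2, 3 or 4 or astrocyte Klotho 3 (adjusted p = 0.0582 to 0.0777) and with the value table's assignment (0.106), and not in controls (0.71 ± 0.33).

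Cdk1 showed the largest difference under Klotho. It had 1.34, 0.45, -0.22 and -0.55 in astrocyte Klotho arrays, against -1.54, -2.47, -2.21 and -2.27 in neuron Klotho arrays (2.38 ± 0.40, adjusted p = 0.000543). In controls it had 0.44, 0.46, -0.89 and -0.77 in astrocytes, against -1.36, -0.84, -2.47 and -2.51 in neurons (1.60 ± 0.49, adjusted p = 0.022). The control groups overlapped through neuron control 2, and the call in controls was lost without neuron control 3 (0.0646), neuron control 4 (0.0633) or astrocyte control 1 (0.0525) and with median centring (0.0517). By probe, the 3 Cdk1 probes ran from -0.16 to 2.95 under Klotho. The probes at these ends were above background on 1 and 0 neuron Klotho arrays, so their neuron values lay near background. Ccnb2 had 2.20, 1.77, 0.70 and 1.03 in astrocyte Klotho arrays, against 0.45, -0.31, -0.21 and -0.22 in neuron Klotho arrays (1.5 ± 0.34), and Kif20a had 1.66, 1.32, 0.94 and 1.02, against 0.16, -0.48, -0.28 and -0.33 (1.47 ± 0.22). Both were called under Klotho, at adjusted p = 0.00349 and 0.000318, and not in controls, where the differences were 0.66 ± 0.31 and 0.94 ± 0.37. Cdc20 (1.05 ± 0.29), Foxm1 (0.96 ± 0.32), Mki67 (0.69 ± 0.24), Bub1 (0.67 ± 0.25) and Top2a (0.59 ± 0.20) were also called higher under Klotho and not in controls, where Mki67 stood at -0.01 ± 0.32. Without neuron Klotho 2, 3 or 4 the calls of Foxm1, Mki67, Bub1 and Top2a were lost each time (adjusted p = 0.0608 to 0.12), and each was also lost without at least 1 astrocyte Klotho array. A call under Klotho and none in controls does not show that the 2 differences differ, since the interaction called none of these genes. Ccnb1, Plk1, Aurka, Birc5, Ccna2, Cenpa, Bub1b and Kif11 were called in neither comparison.

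The replication genes split. Mcm5 had 0.57, 0.13, 0.25 and 0.40 in astrocyte Klotho arrays, against 1.76, 1.31, 1.36 and 1.34 in neuron Klotho arrays (-1.11 ± 0.19, adjusted p = 0.000591). In controls it had 0.78, 0.90, 0.12 and 0.56 in astrocytes, against 1.81, 1.99, 1.12 and 1.01 in neurons (-0.89 ± 0.29, adjusted p = 0.0295). Every astrocyte value lay below every neuron value, although the call in controls was lost without neuron control 1 (0.0756), neuron control 2 (0.0851), astrocyte control 3 (0.0679) or astrocyte control 4 (0.0564). Cdc45 had -4.12, -4.70, -4.68 and -4.72 in astrocyte Klotho arrays, against -3.05, -3.54, -3.42 and -3.44 in neuron Klotho arrays (-1.19 ± 0.21), and -4.31, -4.17, -4.23 and -4.57 in astrocyte controls, against -2.76, -3.22, -3.60 and -3.48 in neuron controls (-1.06 ± 0.23, adjusted p = 0.00461). Cdc6 was lower by both its probes, at -0.70 ± 0.21 under Klotho, a call lost with the value table's assignment (0.0609), and -1.0 ± 0.29 in controls, a call lost without neuron control 2 (0.053). Mcm3 had 2.82, 2.26, 2.14 and 2.14 in astrocyte Klotho arrays, against 1.55, 1.27, 1.31 and 1.34 in neuron Klotho arrays (0.97 ± 0.20, adjusted p = 0.00211), opposite in sign to Mcm5, with which its protein forms the helicase ring. In controls Mcm3 differed by 0.46 and was not called. Under Klotho, Mcm4 (0.65 ± 0.16) and Rrm1 (0.61 ± 0.17) were called higher and Mcm7 lower (-0.64 ± 0.22), none of them called in controls. The Mcm7 call was lost without neuron Klotho 2, 3 or 4 or astrocyte Klotho 2, 3 or 4 (adjusted p = 0.0561 to 0.089) and with the value table's assignment (0.0618). Mcm2, Mcm6, Pcna, Rrm2 and Tyms were called in neither.

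The counts rested on single arrays in controls. Without neuron control 2 they were 6 higher and 1 lower, and without astrocyte control 3 they were 6 higher and 2 lower. With only the astrocyte arrays of row 1, the counts in controls were 10 higher and 3 lower, against 8392 higher and 12824 lower of 31118 tested. With only those of row 2, the counts under Klotho were 10 higher and 7 lower, against 9549 higher and 11036 lower of 29573 tested. Without neuron Klotho 2, 3 or 4, the higher count under Klotho was 9 each time. With the value table's assignment the counts were 13 higher and 3 lower under Klotho, and 4 higher and 4 lower in controls.

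**Figure D4:**
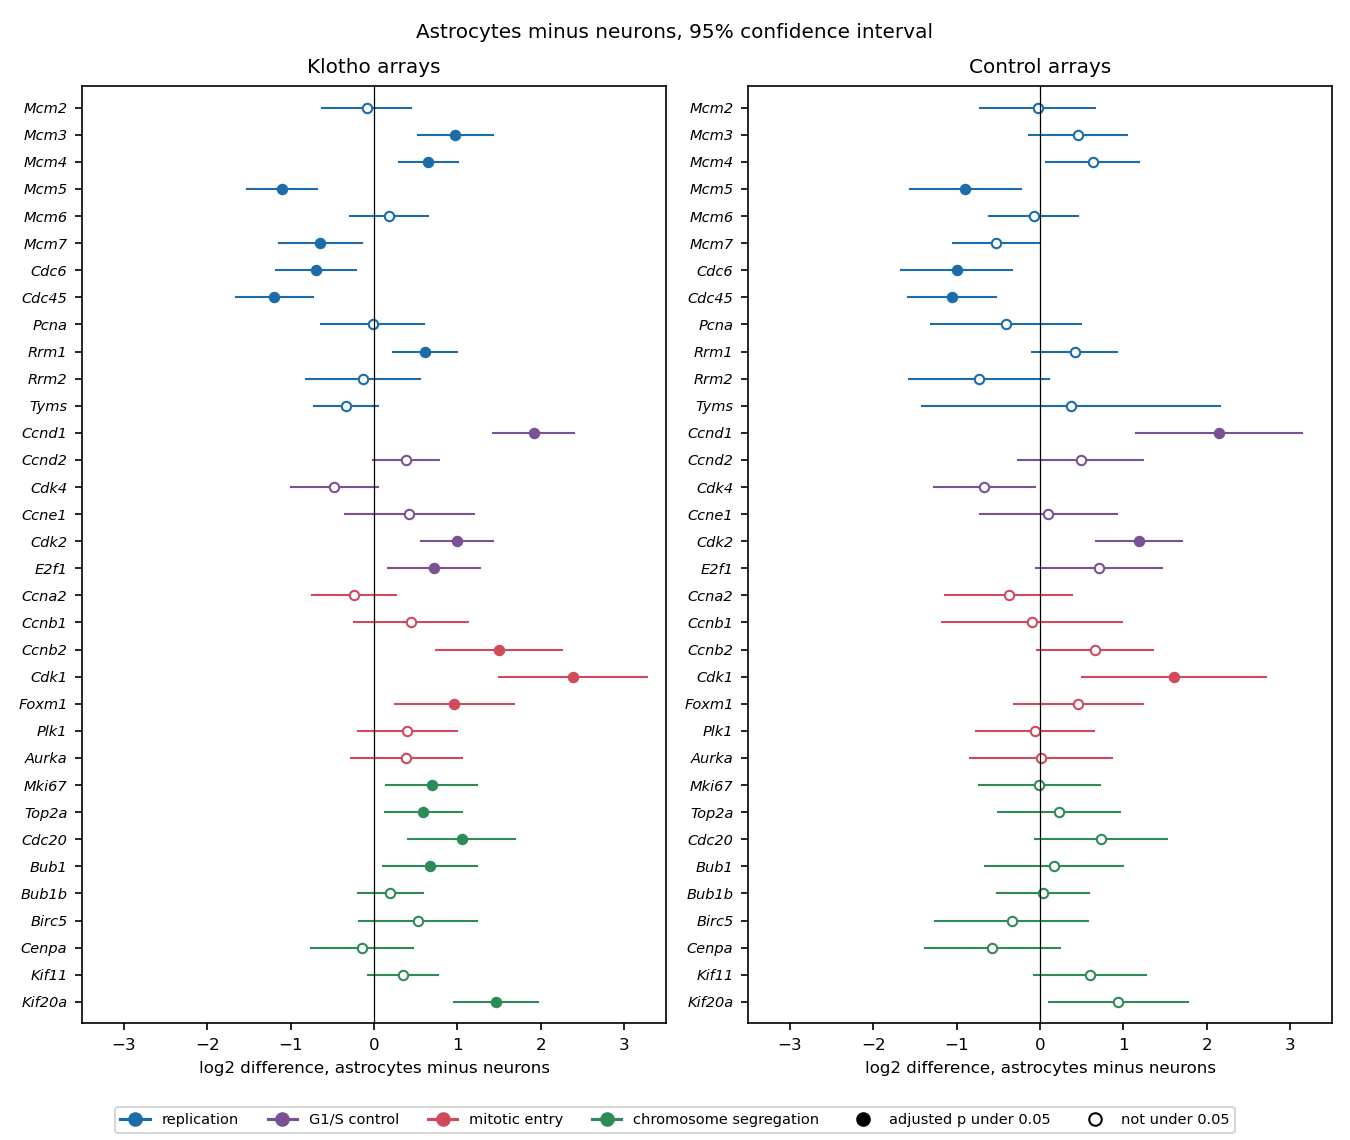
Log2 difference, astrocytes minus neurons (x axis), of the 34 tested cell cycle genes (y axis, coloured by role), in Klotho arrays (left) and control arrays (right); points are limma estimates, filled where the adjusted p was under 0.05, and lines 95% confidence intervals (n = 4 arrays a group). Ccnd1, Cdk2 and Cdk1 are filled to the right of 0 and Mcm5, Cdc6 and Cdc45 to the left in both panels.

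Related genes were compared in the same way, beside 27.4% higher and 35.5% lower over all tested under Klotho and 21.5% higher and 29.9% lower in controls. Of 7 CDK inhibitor genes 4 were higher and 1 lower in astrocytes under Klotho, and 4 higher and 2 lower in controls. Cdkn2a and Cdkn2b were higher by 3.82 ± 0.34 and 4.42 ± 0.40 under Klotho and by 2.93 ± 0.43 and 3.45 ± 0.52 in controls, whereas Cdkn2d, a relative found in neurons, was lower by a log2 difference of -2.02 ± 0.26 and -2.01 ± 0.42. Mycn, a MYC family factor of progenitors, differed by -6.77 ± 0.37 under Klotho and -7.64 ± 0.22 in controls, and Ccnd3 by 1.66 ± 0.24 and 1.52 ± 0.29. Cdk6, the relative of Cdk4, was above background in all astrocyte arrays and in 0 neuron Klotho arrays, and was at least 5.29-fold higher in astrocytes under Klotho. Of 41 other mitosis genes, 17 were higher and 2 lower under Klotho and 7 higher and 2 lower in controls, where the share called higher was below that of all tested. The smallest p-values in both were those of the cytokinesis gene Anln (2.67 ± 0.19 and 2.43 ± 0.27) and of Ckap2 (2.17 ± 0.18 and 2.08 ± 0.31). Of the other replication genes, 3 were higher and 14 lower of 30 under Klotho, and 3 higher and 10 lower of 31 in controls, with the smallest p-value in the primase gene Prim1 (-2.04 ± 0.25 and -2.20 ± 0.30). Of 18 RB, E2F and DREAM genes 8 were higher and 1 lower under Klotho, and 6 higher and 1 lower in controls, with the smallest p-value in Mybl1 (2.71 ± 0.20 and 2.43 ± 0.19). Of 16 p53 targets, 7 were higher and 2 lower under Klotho and 8 higher and 2 lower in controls, among them Mdm2 (1.74 ± 0.22 and 1.78 ± 0.19), which holds p53 in check.

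The labelled cell types were checked against their markers. Of 12 astrocyte markers 10 were higher in astrocytes under Klotho and 9 in controls, with 0 lower, and of 14 neuron markers 13 were lower in both. Nefl and Slc17a7 were above background on 0 astrocyte arrays. Microglial markers were higher in astrocyte cultures for 11 of 12 genes in both comparisons. The mean over these 12 was 2.10 to 2.81 in astrocyte Klotho arrays, against -3.75 to -1.87 in neuron Klotho arrays, and 2.60 to 3.12 in astrocyte controls, against -3.32 to -2.10 in neuron controls. Of 10 meningeal fibroblast markers 7 were higher and 2 lower in astrocyte cultures under Klotho, with a median of 3.16, and 6 higher and 3 lower in controls, with a median of 2.67. Their mean was -0.67 to 0.05 in astrocyte Klotho arrays, against -2.80 to -2.07 in neuron Klotho arrays, and -0.98 to -0.64 in astrocyte controls, against -2.69 to -1.92 in neuron controls. Of 12 oligodendrocyte lineage markers 1 was higher and 9 lower under Klotho, and 1 higher and 6 lower in controls. Of 8 endothelial markers 4 were tested, with Flt1 higher (4.35 under Klotho and 3.25 in controls), Egfl7 lower (-2.60 and -3.43) and Pecam1 and Kdr not called, while Cldn5, Tek and Tie1 were above background on 0 arrays of either culture. Of 12 neural progenitor markers 5 were higher and 5 lower in astrocytes in both comparisons. Their mean was -0.52 to 0.38 in astrocyte Klotho arrays, against 0.45 to 1.03 in neuron Klotho arrays, and -0.47 to 0.06 in astrocyte controls, against 0.54 to 1.35 in neuron controls. The part of other cell types in the cell cycle differences was not tested.

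**Figure D5:**
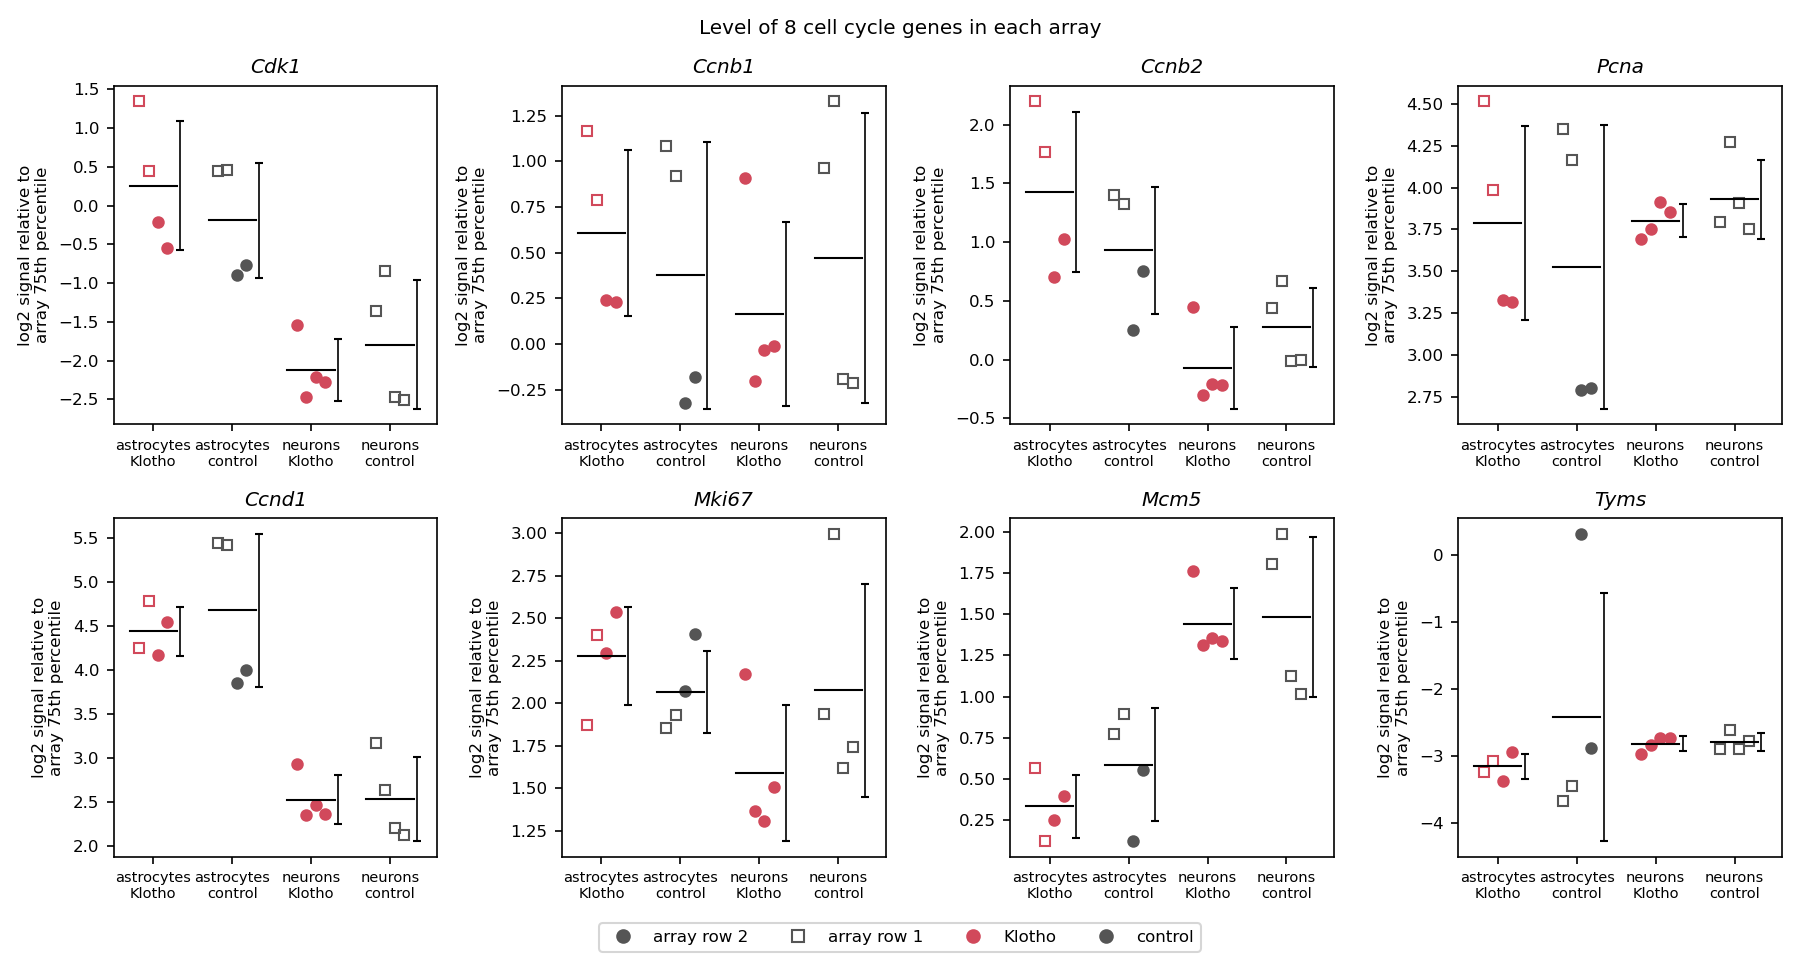
Log2 signal relative to the array's 75th percentile (y axis) of 8 cell cycle genes in each of the 16 arrays, by group (x axis); points are arrays, horizontal bars group means and vertical bars SD (n = 4). Ccnd1 and Cdk1 lie higher and Mcm5 lower in astrocytes, Pcna, Ccnb1 and Ccnb2 separate the astrocyte rows, and Tyms shows astrocyte control 3 at 0.32.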

How the data were processed

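Per the file headers, the authors deposited Agilent Feature Extraction 12.0.3.1 intensity values, 1 colour, with probes placed on build mm9. Flags of 0 or 1 mark spots, deposited as other values. The deposited value table holds a score, which matched the z-score of log2 intensity of 1 array per column to within 0.00502. Outlier spots were dropped, spots averaged, and log2 intensity centred on each array's 75th percentile. Probes were named through RefSeq accessions (28331 of 55681). A gene was tested where it was well above background on all arrays of a compared group. limma 3.58.1 (R 4.3.3; lmFit, eBayes, two-sided, Benjamini-Hochberg over all tested, threshold 0.05) was fitted to each comparison, and was tested on simulated data. Arrays number 4 a group, which limits precision, and 0 spots were saturated. Same-numbered arrays deviated together between Klotho and control (r 0.21 to 0.81 in neurons, 0.17 to 0.78 in astrocytes), and replicate number was also fitted as a block. Differently numbered arrays correlated from negative values to values as high as some of these, so a pairing by number is not shown. Neuron Klotho 2 had 0.56 with control 3, against 0.21 with control 2, and neuron Klotho 1 had -0.75 with control 3. Astrocyte Klotho 1 had 0.73 with control 2 and -0.76 with control 4. In neurons the block left 22 of all tested genes called, against 36, and 0 cell cycle genes. Members and gene lists were chosen with earlier results of these data known. All cell cycle genes are named, and of each related list up to 4 genes with the smallest p-values per comparison. Every array value is given for at most 10 genes per comparison, those with the largest called change or, with fewer than 5 called, the smallest p, plus Mki67 between array rows.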

Additional observations from a re-analysis of the deposited data

Results flagged for a closer look

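19 values in 18 cell cycle genes stood apart from the other 3 arrays of their group, by a gap that was a larger part of the group's range than Dixon's 95% limit for 4 values allows. Chance gives about 1 in 20, and 136 sets of gene and group were examined. 10 of the values came from neuron Klotho 1. In that array Mcm5 stood at 1.76 against 1.31 to 1.36 in the other neuron Klotho arrays, Ccne1 at 1.80 against 0.23 to 0.45, E2f1 at 0.34 against -0.28 to -0.19, Ccna2 at 1.53 against 0.74 to 0.84 and Ccnb2 at 0.45 against -0.31 to -0.21. Plk1 stood at 1.69 against 0.86 to 0.92, Aurka at 0.60 against 0.03 to 0.09, Top2a at -0.28 against -1.0 to -0.89 and Birc5 at 2.09 against 1.39 to 1.46. Mcm7 alone of the 10 was low there, at 3.17 against 3.94 to 4.04.

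5 values came from neuron control 2, all high. Ccnd2 stood at 4.11 against 3.64 to 3.67, Cdk4 at 5.38 against 4.93 to 4.97, Bub1b at -0.59 against -1.19 to -1.15, Cenpa at 0.86 against -0.07 to -0.02 and Kif20a at 0.83 against -0.19 to -0.02. In astrocyte Klotho 1, Mcm6 stood at 4.27 against 3.57 to 3.65 and Cdc45 at -4.12 against -4.72 to -4.68. In astrocyte control 3, Foxm1 stood at -1.50 against -1.0 to -0.96 and Bub1b at -1.49 against -0.84 to -0.79.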

How the results depend on the processing

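The Klotho comparisons and the interaction kept 0 cell cycle genes called under every alternative run, except that without a filter on dim probes 1 gene, Ccne2, was called higher in neurons, where it was below background on all arrays. With replicate number as a block the neuron and astrocyte Klotho counts stayed at 0 (22 of all tested in neurons, against 36). Across the cell types same-numbered arrays did not deviate together in every pair, and the block gave 13 higher and 3 lower under Klotho, and 6 higher and 4 lower in controls. For array row, the higher count was 1 with quantile normalization and with the deposited value table and 0 to 1 with an array left out, and the lower count was 27 with median centring, 0 within slide 3 and 10 to 20 with an array left out. In controls the higher count was 9 with quantile normalization, 10 with the deposited value table, 10 with astrocyte arrays of row 1 and 2 to 6 with an array left out, and the lower count was 1 with median centring, 5 with normexp background correction of median signals, chosen after seeing the data, and 1 to 4 with an array left out. Under Klotho the lower count was 7 with astrocyte arrays of row 2, and leaving out an array gave 9 to 16 higher and 3 to 5 lower. Tyms in controls reversed, to -0.76 with astrocyte arrays of row 1 (limma adjusted p = 0.00411). That setting leaves out astrocyte control 3, where Tyms stood at 0.32. The causes were not tested. Over all tested genes in neurons, normexp called 6, the strict filter 3, no filter 6910 higher and 237 lower, and leaving out an array 16 to 53 lower. The planned correction on mean signals was not run, since the columns used here hold median signals. Signal over background limits Ccne2 and Aurkb.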
